A study of Mus musculus with 6 samples.

Results

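The genes that encode the subunits of oxidative phosphorylation were compared between mouse kidneys examined after a long and after a short period of ischaemia. The members were the protein-coding rows of the mitochondrial chromosome together with the protein-coding rows whose symbol begins as those of complexes I to V do (the Nduf, Sdh, Uqcr, Cyc1, Cox and Atp5 series). This rule used no measured value and gave 98 of 35275 genes in the table, of which 13 are encoded by the mitochondrial chromosome and 85 by nuclear chromosomes. The nuclear members are 35 genes of complex I, 4 of complex II, 9 of complex III, 20 of complex IV and 17 of complex V. The severe group held 3 libraries from kidneys of wild-type C57Bl/6 mice 28 days after 35 min of ischaemia and reperfusion, and the mild group held 3 libraries 28 days after 20 min. No other allele or agent is given for either group, and both groups were injured, so each difference below sets the longer ischaemia against the shorter. Poly-A RNA of the kidney was sequenced without separating its cell types. Nothing in the labels states that each kidney is from another mouse, and p-values here cover no more than the spread among these 6 samples. The libraries are called severe 13, 14 and 15 and mild 7, 8 and 9, after the numbers in the table.

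Oxidative phosphorylation takes electrons from NADH at complex I and from succinate at complex II, passes them through coenzyme Q to complex III and through cytochrome c to complex IV, and uses the proton gradient so formed to drive ATP synthesis at complex V. Most subunits are made from nuclear genes and imported, while a small set is made inside the mitochondrion from its own circular chromosome, and complex II has no subunit of mitochondrial origin. Proximal tubule and thick ascending limb cells of the kidney are rich in mitochondria and depend on this pathway for salt and solute transport.

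The libraries held between 15240491 and 17730967 counts, and 14883 genes were tested with edgeR's quasi-likelihood test. With the p adjusted over all of them (Benjamini-Hochberg, threshold 0.05), 2 genes passed in either direction, which is 0.0134% (0.00672% lower and 0.00672% higher). The severe libraries stood far apart from each other. The variance within pairs of them was 14.2 to 70.0 times that of sampling (chi-square per degree of freedom, counts scaled by totals alone). For pairs of mild libraries it was 3.67 to 5.34 times. Levels are given as CPM, counts scaled to the library size after adjustment by the trimmed mean of M-values (TMM).

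Nearly all subunit genes stood lower in the severe kidneys, by a similar and modest amount, and none passed the test. Of the 94 members with enough counts, 91 had a log2 fold change (severe minus mild) below 0, and 3 had one above 0, the complex IV paralogues Ndufa4l2, Cox6b2 and Cox4i2. With library totals as the scaling 87 were below 0 and 7 above, and all those above 0 were complex IV genes apart from Ndufb2 and Atp5s. Of all tested genes 49.9% were below 0 and 50.1% above with TMM. The median over the 94 was -0.32, where the median over all tested genes was 0.00. With library totals those medians were -0.17 and 0.17. The 3 severe libraries lay wholly below the 3 mild ones for 46 of the 94 genes, or 48.9%, where the background was 16.1%. They lay wholly above for 2 genes, or 2.13%, against a background of 17.9%. In bulk tissue, fewer cells of a type and less RNA per cell cannot be told apart.

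By edgeR 0 members had an adjusted p under 0.05, and the lowest value was 0.0896. At an unadjusted p under 0.05, 15 members were lower, or 16.0%, where the background on that side was 7.89%, and 2 were higher, against a background of 15.8%. DESeq2 called 3 members, 1 lower (background 0.954%) and 2 higher (background 6.91%), where it called 7.87% of all genes. limma-voom with sample quality weights, which lets a library that lies far from the others count for less, called 80 members lower, or 85.1% against a background of 15.7%, and 2 higher against 18.2%, with 33.9% of all genes called. limma-voom without weights called 0. The calls on the members thus differed between tools, while their medians lay between -0.33 and -0.29 with DESeq2 and with the weighted test.

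The size of the difference was not the same in the 3 severe libraries. The median log2 deviation of the 94 genes from the mild mean was -0.06 in severe 13, -0.69 in severe 14 and -0.30 in severe 15, against 0.03, 0.00 and -0.03 in mild 7, 8 and 9. Severe 13 thus lay close to the mild libraries, severe 14 far below them and severe 15 in between. The same order held for the nuclear genes of each of the 5 complexes. Among the 82 tested nuclear genes, 68, 80 and 78 were below their mild mean in severe 13, 14 and 15. Among the 12 tested mitochondrial genes the counts were 4, 12 and 12.

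Leaving out severe 13 raised the number of members past the threshold to 53, of which 51 were lower, or 54.3% against a background of 7.74%, and 2 were higher against 13.8%, with 21.5% of all genes called (edgeR, 2 severe against 3 mild libraries). The lower ones were 29 nuclear genes of complex I, 6 of complex III, 6 of complex IV, 6 of complex V and 4 mitochondrial genes, with 0 of complex II. Leaving out severe 14 gave 0 lower (background 0.931%) and 1 higher (background 2.4%) with 3.33% of all genes called, and the median of the 82 nuclear genes was then -0.17 in place of -0.46 without severe 13. That of the 12 mitochondrial genes was -0.18 in place of -0.58. Leaving out severe 15 gave 0 calls, with medians of -0.34 and -0.31.

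**Figure D1:**
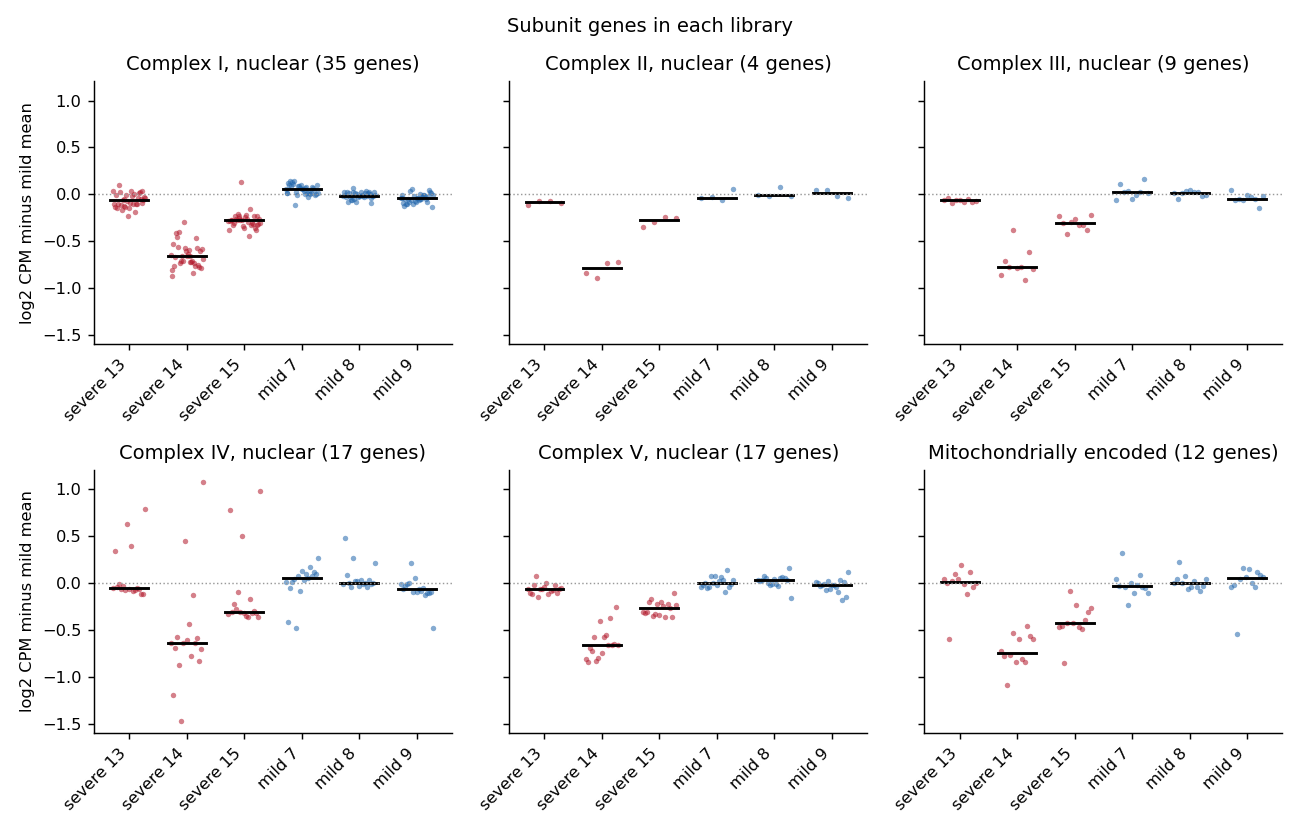
Each point is 1 tested subunit gene in 1 library, as log2 CPM minus the mean of the mild libraries, by complex for nuclear genes and together for the mitochondrial ones; the short black lines are medians over genes. In every panel severe 14 is the lowest library, severe 15 is next and severe 13 lies near the mild libraries, and the points well above 0 in the severe libraries of the complex IV panel are paralogues.

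By complex, the nuclear medians were -0.32 for complex I, -0.35 for complex II, -0.35 for complex III, -0.32 for complex IV and -0.30 for complex V. The mitochondrial median was -0.35. Differences between complexes were not tested. The median over genes in each library had a pooled SD between replicates of 0.22 for nuclear and 0.27 for mitochondrial genes on the same scale. Apart from the 5 tested tissue forms and paralogues of complex IV, the 77 nuclear genes had log2 fold changes between -0.42 and -0.05 with an SD over genes of 0.07. Across these 77 genes the log2 fold change went with the mild level per length at a Spearman rho of -0.31 and with gene length at -0.15. This is a description across genes that share 6 libraries, and genes are not independent replicates.

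**Figure D2:**
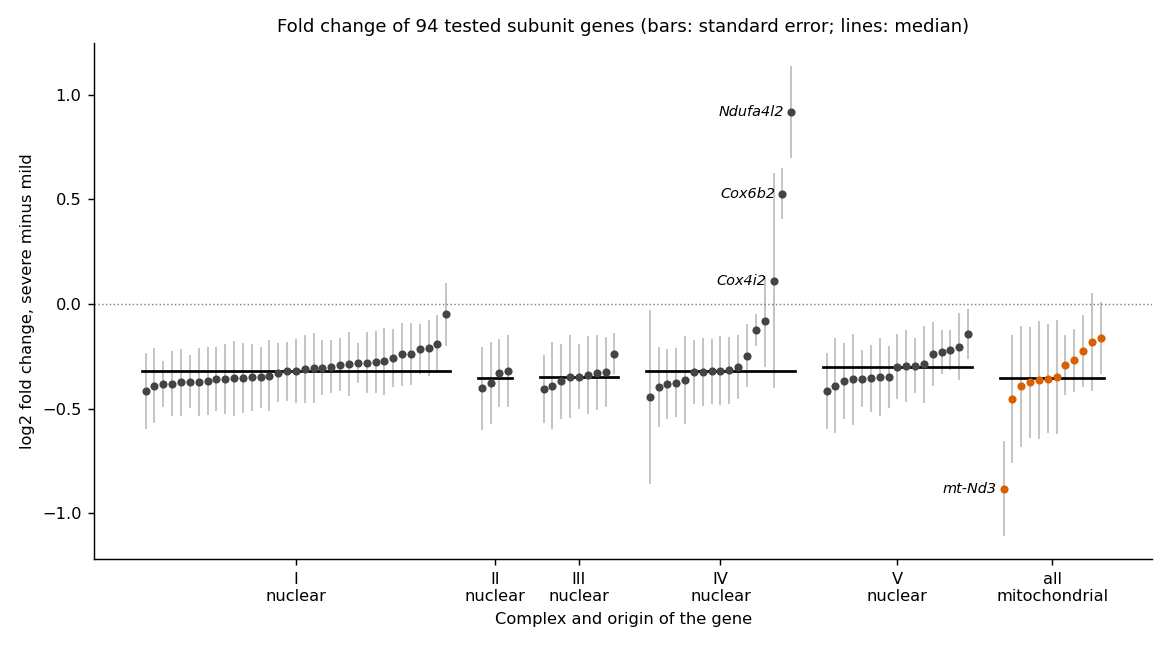
Log2 fold change of the 94 tested subunit genes, severe minus mild, sorted within each complex for nuclear genes (grey) and over all mitochondrial genes (orange), with standard errors from edgeR as vertical bars and the median of each group as a black line. The medians lie between -0.30 and -0.35, with Ndufa4l2 and Cox6b2 above and mt-Nd3 below the rest.

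Complex I, the NADH dehydrogenase, has 7 nuclear genes for its catalytic core and 28 for accessory subunits, which surround the core and help to assemble it. The median log2 fold change was -0.35 for the core and -0.31 for the accessory genes. The severe libraries lay wholly lower for 20 of the 35, or 57.1%, against 16.1% of all tested genes.

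The smallest p of its nuclear genes belonged to Ndufb4 (ENSMUSG00000022820, chromosome 16, minus strand, 37647170 to 37654453 in mm10), an accessory subunit of the membrane arm. It had 79.1, 61.1 and 73.1 CPM in severe 13, 14 and 15, against 99.4, 91.0 and 87.5 CPM in mild 7, 8 and 9, the order in which libraries are given throughout. The groups did not overlap, and severe 13 stood clearly below mild 9, with a log2 fold change of -0.38 ± 0.11 (SE; Benjamini-Hochberg adjusted p = 0.114 by edgeR). Ndufb5, also of the membrane arm, had 88.3, 61.7 and 75.9 CPM against 101, 95.9 and 94.8 CPM in mild libraries, a log2 fold change of -0.37 ± 0.13. Ndufa7, an accessory subunit of the peripheral arm, had 78.1, 66.1 and 72.1 CPM against 96.2, 84.0 and 82.4 CPM in mild libraries, and a log2 fold change of -0.28 ± 0.10. For both genes every severe library was below every mild one, and the adjusted p was 0.151 for each (edgeR). Ndufb2 was nearest to 0 of them, with 8.72, 7.15 and 9.65 CPM against 9.37, 8.32 and 8.72 CPM in mild libraries. Its groups overlapped, and its log2 fold change of -0.05 ± 0.15 was 0.11 with library totals.

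Complex II, the succinate dehydrogenase, also works in the citric acid cycle and is built from 4 nuclear genes. All 4 stood lower in each severe library than in any mild library, as did 16.1% of all tested genes. Sdha, the flavoprotein that oxidises succinate, had 961, 580 and 815 CPM in severe libraries, against 1009, 1032 and 1074 CPM in mild libraries. The gap between severe 13 and the lowest mild library was small beside the distance of severe 14, and the log2 fold change was -0.40 ± 0.20 (adjusted p = 0.249 by edgeR). Sdhb, the iron-sulphur subunit, had 333, 189 and 287 CPM against 344, 347 and 361 CPM in mild libraries. The membrane anchors Sdhc and Sdhd had log2 fold changes of -0.32 ± 0.17 and -0.33 ± 0.16. None of the 4 had an unadjusted p under 0.05.

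Complex III passes electrons from coenzyme Q to cytochrome c. Its nuclear catalytic subunits are cytochrome c1 (Cyc1) and the Rieske iron-sulphur protein (Uqcrfs1), with log2 fold changes of -0.35 ± 0.20 and -0.39 ± 0.21. Uqcr11, a small accessory subunit, had 210, 131 and 168 CPM in severe libraries, against 230, 228 and 218 CPM in mild libraries. The groups did not overlap, and the log2 fold change of -0.41 ± 0.16 was the lowest of the nuclear genes of this complex (adjusted p = 0.195 by edgeR). The core protein gene Uqcrc2 had 438, 270 and 369 CPM against 463, 473 and 455 CPM in mild libraries. Uqcrh, the hinge protein that contacts cytochrome c1, had 222, 152 and 180 CPM against 261, 231 and 212 CPM in mild libraries, and here severe 13 lay inside the mild range. Uqcrb was nearest to 0, at -0.24 ± 0.10, with 95.7, 76.7 and 81.3 CPM against 102, 102 and 95.4 CPM in mild libraries. Of the 9 genes 6, or 66.7%, lay wholly lower, against 16.1% of all tested genes.

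Complex IV, cytochrome c oxidase, is the complex in which several nuclear subunits have a second form used in particular tissues or under low oxygen. The 12 widely expressed forms had a median log2 fold change of -0.32, and 5 of them (41.7%, against 16.1% of all tested genes) lay wholly lower. Cox6a1, the liver-type form of subunit VIa and the highest of them in CPM, had 727, 414 and 626 CPM in severe libraries, against 780, 733 and 759 CPM in mild libraries. Severe 13 was just below the lowest mild library, and the log2 fold change was -0.36 ± 0.21 (adjusted p = 0.302 by edgeR). Cox4i1 had 552, 369 and 456 CPM against 579, 570 and 567 CPM in mild libraries. Cox8a, at 539, 328 and 467 CPM against 632, 577 and 544 CPM in mild libraries, and Ndufa4, at 384, 256 and 323 CPM against 445, 417 and 389 CPM in mild libraries, also did not overlap. Cox7b and Cox7a2 overlapped, with log2 fold changes of -0.32 ± 0.16 and -0.38 ± 0.17. Cox7a2l, a subunit-like protein linked to the supercomplex of complexes III and IV, differed least, at 112, 108 and 105 CPM against 123, 118 and 114 CPM in mild libraries. Its groups did not overlap although its log2 fold change was -0.13 ± 0.08, and it was 0.04 with library totals. Severe 14 lay close to the other severe libraries here.

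Of the 5 tested tissue forms and paralogues, Ndufa4l2 and Cox6b2 lay wholly higher in severe kidneys, as did 17.9% of all tested genes. Their widely expressed partners lay below 0. Ndufa4l2 (ENSMUSG00000040280, plus strand of chromosome 10 from 127514939 to 127517152 in mm10) is related to the complex IV subunit Ndufa4 and is known as a target of hypoxia-inducible factor. It had 6.46, 7.88 and 7.38 CPM in severe libraries, against 4.48, 4.31 and 2.68 CPM in mild libraries. All severe libraries were above all mild ones, severe 13 included, with a log2 fold change of 0.92 ± 0.22 (adjusted p = 0.0933 by edgeR; DESeq2 adjusted p = 0.0083). Cox6b2 (ENSMUSG00000051811, minus strand of chromosome 7 from 4751792 to 4753094), best known as the testis form of subunit VIb, had 11.6, 10.3 and 10.6 CPM in severe libraries, against 7.10, 7.67 and 7.82 CPM in mild libraries. These groups were also well apart, with a log2 fold change of 0.53 ± 0.12 (adjusted p = 0.0896 by edgeR; DESeq2 adjusted p = 0.0302). In the same libraries its partner Cox6b1 had 308, 209 and 263 CPM against 342, 330 and 304 CPM in mild libraries, with overlap and a log2 fold change of -0.32 ± 0.15. Among all tested genes DESeq2 called 6.91% higher, and edgeR called 13.8% higher without severe 13 and 2.4% without severe 14. Without severe 13 both paralogues passed (adjusted p = 0.0227 for Ndufa4l2 and 0.046 for Cox6b2, edgeR). Without severe 14 Cox6b2 passed at 0.0494 and Ndufa4l2 missed the threshold at 0.0605, and without severe 15 the values were 0.213 for Cox6b2 and 0.218 for Ndufa4l2.

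Both paralogues were minor forms in CPM per kb of gene length, the scale on which genes can be compared. Ndufa4l2 stood at 7.54 CPM per kb in severe and 3.98 in mild kidneys on average, where Ndufa4 stood at 653 in severe and 847 in mild kidneys. Cox6b2 stood at 18.6 CPM per kb in severe and 12.9 in mild kidneys, where Cox6b1 stood at 515 in severe and 644 in mild kidneys. The other tissue forms showed no such separation. Cox7a1, the heart and muscle form of subunit VIIa, had 16.7, 9.45 and 10.02 CPM against 13.03, 13.1 and 12.2 CPM in mild libraries. Cox4i2, a lung form of subunit IV, had 0.814, 0.281 and 1.11 CPM against 0.482, 0.898 and 0.618 CPM in mild libraries, and Cox6a2, a heart and muscle form, had 1.22, 0.45 and 1.17 CPM against 0.896, 1.497 and 1.44 CPM in mild libraries. All 3 overlapped between groups, with log2 fold changes of -0.08 ± 0.22 for Cox7a1, 0.11 ± 0.51 for Cox4i2 and -0.44 ± 0.42 for Cox6a2, the lowest of the nuclear members. Their signs did not hold throughout: Cox7a1 was at 0.06 with library totals and Cox4i2 at -0.30 without severe 15. Cox7b2 and Cox8c were listed at 0 in each library and Cox8b had 1 count in severe 13 and 2 in mild 7, so these 3 were not tested.

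**Figure D3:**
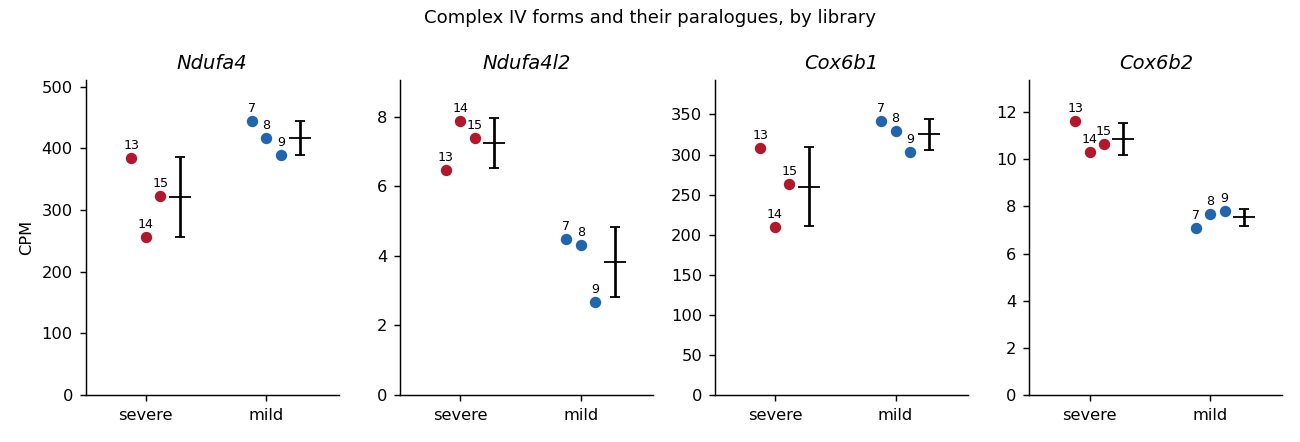
CPM of Ndufa4 and Ndufa4l2 and of Cox6b1 and Cox6b2 in each library (numbered points; severe left, mild right), with the mean and SD of each group (n = 3) at the side and axes from 0. Ndufa4l2 and Cox6b2 are above the mild range in all 3 severe libraries, while their partners are lowest in severe 14.

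Complex V, the ATP synthase, has a catalytic F1 head, a stalk and a membrane part with the rotating c-ring. Median log2 fold changes were -0.36 for the 5 head genes, -0.33 for the 4 stalk genes and -0.32 for the 6 membrane genes. Atp5b, the catalytic beta subunit, was the highest nuclear member in CPM. It had 3431, 2064 and 2973 CPM in severe libraries, against 3641, 3747 and 3706 CPM in mild libraries, without overlap and with a log2 fold change of -0.39 ± 0.23 (adjusted p = 0.309 by edgeR). Atp5o, the stalk subunit that holds the head still, had the smallest p of the complex at 178, 123 and 149 CPM against 186, 197 and 193 CPM in mild libraries (log2 fold change -0.36 ± 0.14, adjusted p = 0.183). The membrane subunits Atp5j2 and Atp5k overlapped between groups, with log2 fold changes of -0.35 ± 0.15 and -0.22 ± 0.09.

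The c-ring protein is made from 3 nuclear genes that differ in the sequence for import and give the same mature protein. Atp5g3 had 742, 458 and 603 CPM in severe libraries, against 756, 787 and 753 CPM in mild libraries. Atp5g1 had 314, 188 and 260 CPM against 327, 324 and 332 CPM in mild libraries. Atp5g2 had 140, 110 and 125 CPM against 154, 146 and 140 CPM in mild libraries. All 3 lay wholly lower in severe kidneys, as did 16.1% of all tested genes. In each of the 3, severe 13 was level with or just below the lowest mild library. Their log2 fold changes were -0.35 ± 0.19 for Atp5g3, -0.37 ± 0.18 for Atp5g1 and -0.23 ± 0.11 for Atp5g2. Atp5s and Atp5sl matched the rule by symbol but are not structural subunits of the enzyme, and both overlapped between groups at -0.14 ± 0.12 and -0.30 ± 0.15.

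The 13 mitochondrial genes hold 7 subunits of complex I, cytochrome b of complex III, 3 catalytic subunits of complex IV and 2 membrane subunits of complex V. Together they took 10.7%, 7.48% and 8.47% of all counts in severe 13, 14 and 15, against 10.7%, 10.4% and 10.5% in mild 7, 8 and 9. Severe 13 thus lay within the mild range and the other severe libraries were below it. The mean difference, severe minus mild, was -1.67 percentage points, -2.57 without severe 13 and -0.974 without severe 14. The 85 nuclear genes took 2.34%, 1.77% and 2.14% of counts in severe libraries, against 2.42%, 2.40% and 2.35% in mild libraries. The summed CPM of mitochondrial over nuclear members was 4.57, 4.21 and 3.95 in severe libraries, against 4.44, 4.34 and 4.47 in mild libraries. Severe 13 had the highest and severe 15 the lowest of these ratios, so the groups overlapped. The RNA was selected by its poly-A tail, and mitochondrial transcripts carry short tails or, for mt-Nd6, are held to carry none, so their share is that of the captured RNA.

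All 12 tested mitochondrial genes had a log2 fold change below 0, in the main scaling and with library totals, and 10 of them overlapped between groups. The other 2, or 16.7%, lay wholly lower, near the 16.1% of all tested genes. The complex IV catalytic subunit mt-Co1 had the highest level, at 38390, 23174 and 29517 CPM in severe libraries, against 44063, 40200 and 40297 CPM in mild libraries. It did not overlap, with a log2 fold change of -0.45 ± 0.31 (adjusted p = 0.369 by edgeR). Cytochrome b (mt-Cytb) had 20941, 12049 and 15225 CPM against 20871, 21388 and 21065 CPM in mild libraries, so that severe 13 lay inside the mild range. The same held for mt-Nd4 and mt-Nd1. The log2 fold changes were -0.39 ± 0.29 for mt-Cytb, -0.35 ± 0.27 for mt-Nd1, -0.37 ± 0.27 for mt-Nd2, -0.36 ± 0.26 for mt-Nd4 and -0.36 ± 0.28 for mt-Nd5. mt-Nd6, the gene transcribed from the other strand, had 2717, 1567 and 2014 CPM against 2211, 2301 and 2632 CPM in mild libraries (log2 fold change -0.18 ± 0.23), with severe 13 the highest of all 6. The strand setting of the counting is not given, so the mt-Nd6 row may also hold reads of the opposite strand.

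mt-Nd3, which encodes a small membrane subunit of complex I, lay farthest from 0 among the members below 0. It had 47.2, 33.7 and 39.7 CPM in severe libraries, against 89.6, 83.4 and 49.0 CPM in mild libraries. Mild 9 stood near the severe libraries, so the groups were apart by little, and the log2 fold change was -0.88 ± 0.23 (adjusted p = 0.103 by edgeR; DESeq2 adjusted p = 0.0072). Without severe 13 it passed (adjusted p = 0.0266 by edgeR), and without severe 14 or severe 15 it did not (adjusted p = 0.294 and 0.231).

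The counts of 7 mitochondrial genes are uncertain because a nuclear copy of mitochondrial DNA on the minus strand of chromosome 1, between 24611535 and 24616197 in the table's mm10 coordinates, is listed as gene rows of its own. The copy shares stretches of 31 bases (31-mers) with these genes, and a read from a shared stretch has more than 1 place to map. The start of mt-Nd3 and of its copy Gm28438, and of mt-Co2 and its copy Gm28661, show how close they are. The first 60 bases of each, read from GENCODE M21 transcripts, are given 5′ to 3′ with capitals at a base that differs within the pair.
mt-Nd3: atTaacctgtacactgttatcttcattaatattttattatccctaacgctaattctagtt
Gm28438: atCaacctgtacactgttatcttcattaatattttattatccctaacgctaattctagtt
mt-Co2: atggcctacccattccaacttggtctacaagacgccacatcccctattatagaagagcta
Gm28661: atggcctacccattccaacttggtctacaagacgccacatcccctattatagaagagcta
The difference T3C, counted from base 1 of mt-Nd3, was the 1 difference over the 345 aligned bases of that pair. The mt-Co2 pair had 0 differences over 681 bases, the mt-Atp6 pair 0 over 678, the mt-Co3 pair 0 over 783, the mt-Nd4l pair 0 over 294 and the mt-Nd4 pair 0 over 876. The mt-Co1 pair had 6 differences over 492 bases.

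The share of 31-mers also held by the copy was 99.9% for mt-Co3, 99.5% for mt-Co2, 99.5% for mt-Atp6, 98.9% for mt-Nd4l and 98.1% for mt-Nd3. It was 62.8% for mt-Nd4, 29.6% for mt-Co1 and 0 for mt-Nd1, mt-Nd2, mt-Nd5, mt-Nd6 and mt-Cytb. In CPM per kb the 5 genes held almost whole by the copy stood between 82.2 and 413 in severe and between 92.0 and 482 in mild kidneys. The 7 genes held in part or not at all, mt-Nd4 and mt-Co1 among them, stood between 4045 and 19650 in severe and between 4588 and 26874 in mild kidneys. How reads from shared stretches were counted is not given, and the part of sharing in these levels was not tested. mt-Atp8, which has no row of its own in the copy and overlaps mt-Atp6, had 2.37 CPM per kb in severe and 2.70 in mild kidneys and was not tested. Sharing was also counted over every transcript not of the mitochondrial chromosome, the copy included. The shared part was then 63.9% for mt-Co1, 16.8% for mt-Nd5, 13.5% for mt-Nd2, 7.36% for mt-Nd6, 6.55% for mt-Cytb and 0 for mt-Nd1. Sharing between mitochondrial genes was not counted.

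The copy's rows also stood lower in severe kidneys, with log2 fold changes between -0.17 and -0.90. Gm28438, the copy of mt-Nd3, had 29.3, 20.5 and 24.0 CPM in severe libraries, against 27.6, 31.4 and 30.8 CPM in mild libraries. It overlapped between groups, unlike mt-Nd3, and its log2 fold change was -0.29 ± 0.13. With the counts of each gene and its copy summed, an alternative added after seeing the data, mt-Nd3 stood at -0.68 ± 0.18 (adjusted p = 0.103 by edgeR), and the median of the 12 mitochondrial genes remained -0.35. The copy of mt-Co1, Gm29216, had 448.8 CPM in mild 7 and between 118 and 182 CPM in the other 5 libraries.

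**Figure D4:**
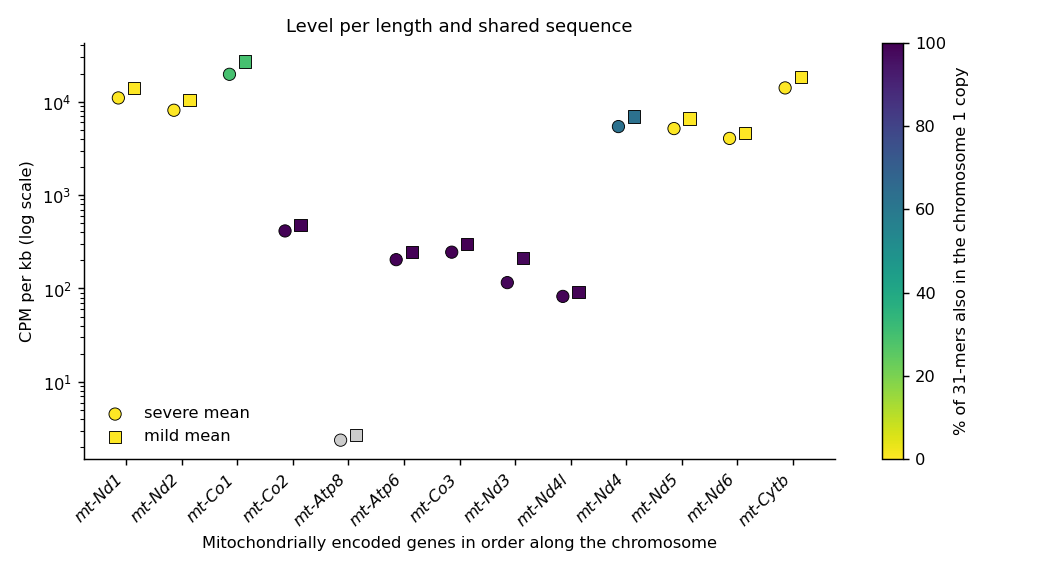
Mean CPM per kb (log scale) of the 13 mitochondrial genes in their order on the chromosome, severe as circles on the left and mild as squares on the right of each pair, coloured by the share of the gene's 31-mers that the chromosome 1 copy also holds; mt-Atp8, which the copy does not list, is grey. The 5 genes that share nearly all of their sequence stand between 82.2 and 482 CPM per kb, below every gene that shares less apart from mt-Atp8.

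The genes that assemble, regulate and serve the complexes had list medians between -0.27 and -0.07, and 0 of them passed by edgeR. With library totals the list medians lay between -0.12 and 0.10. Counts without overlap are to be read against 16.1% of all tested genes wholly lower and 17.9% wholly higher in severe kidneys. Counts below 0 with TMM are to be read against 49.9%. That share does not serve for the counts with library totals, where the median over all tested genes was 0.17 and lay above each list median. Of 14 tested assembly factors of complex I, all 14 had a log2 fold change below 0 with a median of -0.27, 8 (57.1%) did not overlap on the lower side and 0 passed. With library totals 13 were below 0 and 1 above. Nubpl, which delivers iron-sulphur clusters to complex I, had 17.7, 15.1 and 16.7 CPM in severe libraries, against 23.3, 21.9 and 22.0 CPM in mild libraries. Every severe library was well below the mild ones, with a log2 fold change of -0.44 ± 0.10 (adjusted p = 0.0867 by edgeR). The assembly factors Ndufaf4 and Tmem186 stood at -0.32 ± 0.10 and -0.33 ± 0.11, and neither overlapped.

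For complexes II to V, 20 of 26 tested assembly factors were below 0 and 6 above, with a median of -0.17 and 5 genes (19.2%) wholly lower, near the 16.1% of all genes. With library totals 14 were below 0 and 12 above. Lyrm7, an assembly factor for the Rieske protein of complex III, had 3.43, 3.43 and 3.14 CPM in severe libraries, against 5.65, 4.37 and 5.76 CPM in mild libraries (log2 fold change -0.65 ± 0.18, edgeR adjusted p = 0.112). Uqcc1, an assembly factor for cytochrome b, had 55.7, 41.6 and 55.5 CPM against 65.9, 70.9 and 67.2 CPM in mild libraries. Both genes were lower in every severe library, severe 13 included. Coa6, which helps to deliver copper to complex IV, stood at -0.33 ± 0.13.

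Coenzyme Q synthesis and cytochrome c had 14 of 15 tested genes below 0, a median of -0.25 and 8 (53.3%) wholly lower. With library totals 12 were below 0 and 3 above. Pdss1, which makes the tail of coenzyme Q with Pdss2, had 14.9, 10.9 and 13.7 CPM in severe libraries, against 22.7, 17.5 and 19.1 CPM in mild libraries (log2 fold change -0.59 ± 0.15, edgeR adjusted p = 0.104). Pdss2 and the hydroxylase gene Coq7 also did not overlap, at -0.25 ± 0.09 and -0.37 ± 0.11. Cycs, which encodes cytochrome c, overlapped at 364, 216 and 281 CPM against 412, 347 and 367 CPM in mild libraries. Of the 6 tested genes for the ATP synthase inhibitor, nucleotide exchange and uncoupling, 5 were below 0 and 1 above, with a median of -0.26, and with library totals 4 were below and 2 above.

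Of 26 tested genes for replication, transcription and RNA processing of mitochondrial DNA, 25 were below 0, with a median of -0.17, and 11 (42.3%) lay wholly lower and 1 wholly higher. With library totals 14 were below 0 and 12 above. Tfam, which packages and transcribes mitochondrial DNA, had 51.1, 35.6 and 45.5 CPM in severe libraries, against 48.7, 50.2 and 51.7 CPM in mild libraries, with overlap and a log2 fold change of -0.19 ± 0.13. Top1mt, the mitochondrial topoisomerase, stood at -0.38 ± 0.13, Trmt10c, which trims and methylates mitochondrial tRNA, at -0.37 ± 0.12, and the tRNA-modifying gene Mto1 at -0.34 ± 0.12. These 3 did not overlap, and 0 of the list passed.

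Nuclear regulators were split, with 8 of 15 below 0 and 7 above, a median of -0.07, and 2 wholly lower and 2 wholly higher, 13.3% on each side and under the shares of all genes. With library totals 4 were below 0 and 11 above. Esrra, an orphan nuclear receptor that drives respiratory genes, had 146, 96.3 and 138 CPM in severe libraries, against 179, 167 and 176 CPM in mild libraries. All 3 severe libraries were below the mild ones, and the log2 fold change was -0.46 ± 0.15 (adjusted p = 0.149 by edgeR). The coactivator Ppargc1b had 7.56, 3.71 and 8.12 CPM against 11.5, 8.26 and 9.27 CPM in mild libraries, also without overlap. The better known coactivator Ppargc1a had 68.5, 51.8 and 59.6 CPM against 67.5, 66.0 and 62.0 CPM in mild libraries. It overlapped, and its log2 fold change of -0.12 ± 0.11 was 0.04 with library totals. Esrrg at -0.07 ± 0.10, Nrf1 at 0.03 ± 0.12 and Gabpa at 0.09 ± 0.07 also overlapped, and 0 of the 15 passed. The 2 wholly higher genes, Gabpb1 at 0.24 ± 0.11 (partner of Gabpa) and Tfe3 at 0.19 ± 0.08 (a regulator of lysosomal and mitochondrial genes), were named after their values were seen. Esrrg, Nrf1 and Gabpa encode another orphan receptor, nuclear respiratory factor 1 and the DNA-binding part of nuclear respiratory factor 2.

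Promoter sequence is described because the nuclear members had much the same difference. RefSeq promoters (GRCm38.p6; 250 bases before to 50 after a start) were found for 67 of the 85 nuclear members, in 73 windows, and 32851 windows were read in all. The letters searched on both strands were GCGC, any base, then TGCGC for nuclear respiratory factor 1, CCGGAAG for ETS factors such as Gabpa, AAGATGGC for YY1 and TCAAGGTCA for the oestrogen-related receptors. Overlaps between different motifs were allowed. The first was in 24.7% of member windows and 4.6% of all windows, the second in 21.9% and 8.86%, YY1 in 15.1% and 2.75%, and the receptor motif in 2.74% and 0.423%. Any of the 4 was in 53.4% of member windows and 15.1% of all windows.

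Examples are the 250 bases before the start of 4 members, Ndufb4 and Sdha with the nuclear respiratory factor 1 letters only, Cox6a1 with those and the ETS letters, and Cox6b2 with none. They lie on the minus strand at chr16:37654369-37654618 (Ndufb4), chr13:74350241-74350490 (Sdha), chr5:115348959-115349208 (Cox6a1) and chr7:4753095-4753344 (Cox6b2) of GRCm38.p6. Each is given 5′ to 3′ along the gene's strand, with motif letters in capitals.
Ndufb4: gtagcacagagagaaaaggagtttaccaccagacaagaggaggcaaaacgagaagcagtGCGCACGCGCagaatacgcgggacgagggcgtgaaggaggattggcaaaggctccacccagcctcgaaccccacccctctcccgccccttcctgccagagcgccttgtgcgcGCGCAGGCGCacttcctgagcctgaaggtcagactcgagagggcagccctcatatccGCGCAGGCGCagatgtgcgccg
Sdha: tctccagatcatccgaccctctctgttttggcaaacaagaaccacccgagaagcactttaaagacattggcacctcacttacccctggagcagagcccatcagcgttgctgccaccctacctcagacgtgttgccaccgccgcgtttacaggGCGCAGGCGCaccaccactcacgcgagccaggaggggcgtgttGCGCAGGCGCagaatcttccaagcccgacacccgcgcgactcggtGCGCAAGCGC
Cox6a1: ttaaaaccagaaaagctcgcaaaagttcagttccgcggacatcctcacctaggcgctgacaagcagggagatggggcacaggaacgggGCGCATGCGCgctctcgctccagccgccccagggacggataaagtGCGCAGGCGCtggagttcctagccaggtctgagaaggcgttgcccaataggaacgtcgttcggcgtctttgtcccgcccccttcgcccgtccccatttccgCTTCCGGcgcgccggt
Cox6b2: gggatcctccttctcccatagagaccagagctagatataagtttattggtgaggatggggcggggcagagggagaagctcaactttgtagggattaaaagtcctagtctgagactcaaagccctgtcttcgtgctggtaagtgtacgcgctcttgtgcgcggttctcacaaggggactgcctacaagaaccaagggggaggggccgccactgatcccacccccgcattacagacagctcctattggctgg
Median log2 fold changes were -0.34 for the 17 tested members with the nuclear respiratory factor 1 letters and -0.32 for the 48 without. They were -0.31 for the 16 with the ETS letters and -0.32 for the 49 without, and -0.31 for the 10 with the YY1 letters and -0.32 for the 55 without. Members with and without these letters thus had nearly the same difference. A match describes letters in a window and is not a bound site, and no match says only that these letters are not in that window.

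Markers of some tubule segments varied with the subunit genes over the libraries and markers of other cell types did not. The part of cell types in the differences was not tested. The 12 proximal tubule markers, Lrp2 and Slc34a1 among them, were counted at well above 0 in these kidney libraries. All 12 were below 0, as were 49.9% of all tested genes, and their median log2 fold change was -0.52. Of the 12, 10 (83.3%) lay wholly lower in severe kidneys, against 16.1% of all tested genes. The summed CPM of the 12 was 34754, 17540 and 31378 in severe libraries, against 42767, 40275 and 40183 in mild libraries. The order of the severe libraries was that of the subunit genes. The 6 loop of Henle markers had a median of -0.48 and summed CPM of 6338, 3845 and 5778 against 7008, 6846 and 6949 in mild libraries. The medians were -0.34 for the distal convoluted tubule, -0.14 for the collecting duct, -0.12 for podocytes and 0.05 for endothelium.

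Fibroblast, macrophage and injured tubule markers lay in the opposite order. The 6 fibroblast markers summed to 913, 3015 and 1580 CPM in severe libraries, against 558, 515 and 435 CPM in mild libraries, with a median of 1.59. The 7 macrophage markers summed to 512, 975 and 611 CPM against 265, 306 and 319 CPM in mild libraries, and the 5 injured tubule markers to 173, 786 and 388 CPM against 115, 110 and 167 CPM in mild libraries. The 4 T cell markers summed to 5.47, 9.51 and 10.3 CPM in severe libraries, against 3.24, 6.05 and 7.34 CPM in mild libraries, and the 2 erythroid markers to 18.6, 3.04 and 2.21 CPM against 2.07, 4.07 and 0.686 CPM in mild libraries. The 5 endothelial markers summed to 381, 308 and 336 CPM against 348, 343 and 302 CPM in mild libraries. Severe 14 was highest and severe 13 lowest of the severe libraries in the fibroblast, macrophage and injured tubule lists, and no marker of these lists was at 0 in all libraries. Of the tissues that use the muscle forms of complex IV, the 5 skeletal and heart muscle markers summed to 2.79, 2.03 and 1.78 CPM in severe libraries, against 1.38, 2.10 and 2.13 CPM in mild libraries.

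The summed CPM of the 85 nuclear members was 24026, 15212 and 20551 in severe libraries, against 25615, 25432 and 24850 in mild libraries. Divided by that of the proximal tubule markers, it was 0.691, 0.867 and 0.655 in severe libraries, against 0.599, 0.632 and 0.618 in mild libraries. Relative to these markers the subunit genes were thus higher in each severe library than in any mild library, and highest in severe 14. The log2 of the severe over the mild mean of this ratio was 0.25, and 0.13 without severe 14. This ratio moves with the choice of markers and is given without a test. Divided by the loop of Henle sums given above instead, the nuclear sums overlap between severe and mild libraries.

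**Figure D5:**
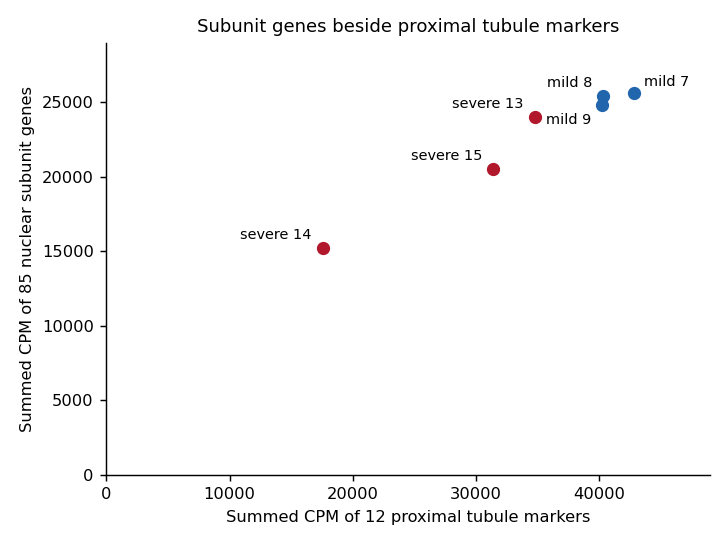
Summed CPM of the 85 nuclear subunit genes against that of the 12 proximal tubule markers, 1 point per library, severe in red and mild in blue, both axes from 0. Severe 14 is lowest on both axes, severe 15 and severe 13 follow, and the 3 mild libraries lie together at the upper right.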

How the data were processed

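Poly-A RNA was sequenced from kidneys of 2 groups of 3. Per the labels' protocols, RNA was isolated with TRIzol and DNase, poly-T selected and prepared with a NEBNext Ultra RNA kit. Per the submitters' processing notes the tools were HTSeq 0.6.1, TopHat2 2.0.12 and Bowtie2 2.2.3, with the build mm10. Not given in the sources used here are what each tool did, the annotation release, the strand setting and the handling of reads with several places to map. The authors deposited raw counts of reads for each Ensembl gene, with 0 rows lacking a gene name.

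Columns gave the group and a number that matched no sample title, so columns entered as unpaired replicates, and 0 columns were left out. The filter was filterByExpr of edgeR 4.0.16 (R 4.3.3), the scaling TMM (factors 0.974, 1.17 and 1.04 in severe 13, 14 and 15, and 0.943 to 0.945 in mild libraries), and the test the robust quasi-likelihood F test with Benjamini-Hochberg adjustment over 14883 genes. A standard error is the size of the log2 fold change over the square root of F. CPM per kb divides CPM by the table's gene length. Copies of mitochondrial genes were found by 31-mers of GENCODE M21 transcripts.

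The members and gene lists were chosen with earlier results of these data known. Of the members, the text names all mitochondrial genes, the tissue forms of complexes IV and V, and in each complex the 3 nuclear genes with the smallest p, the one with the highest CPM and the one with the highest fold change. Not every gene that this rule takes is reported here. It also names anchor regulators and the 3 genes with the smallest p in 4 lists. Uqcrfs1, Cyc1 and Atp5sl fall outside that rule and were added to complete a description. The self-test on simulated counts used the levels and dispersion of the real fit and ran after it. Alternatives were scaling by RLE, by upper quartiles or by library totals, leaving out the filter or asking for 1 CPM or more in 3 libraries, limma-voom (limma 3.58.1) with quality weights and without, DESeq2 1.42.0, non-robust dispersion, removal of mitochondrial genes and each library left out in turn. Counting error alone is small for members with high counts, and the spread between 3 libraries limits their precision. It is not small for tissue forms with few reads. Cox4i2, for example, had 14, 5 and 18 counts in severe libraries, against 7, 15 and 9 in mild libraries. Figures were drawn with matplotlib 3.10.9.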

Additional observations from a re-analysis of the deposited data

How the results depend on the processing

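No paired analysis was possible because the columns carry no replicate numbers that the 2 groups share. The count of genes past the threshold, 2 by edgeR, was 1 with library totals, 146 with no low-count filter, 1171 with DESeq2 and 5041 with limma-voom and quality weights, and 0 to 3269 with each library left out in turn (3269 without severe 13, 501 without severe 14, 1 without severe 15, 0 without any 1 mild library). The count of members past it, 0 by edgeR, was 3 with DESeq2 and 82 with limma-voom and quality weights, and 0 to 53 with each library left out (53 without severe 13, 1 without severe 14), and the cause was not tested. The median log2 fold changes of nuclear and of mitochondrial genes stayed below 0 in every setting run. Of single named genes, 8 changed sign in 19 values, none of them past the threshold. With library totals these were Ndufb2 at 0.11, Atp5s at 0.020, Cox7a1 at 0.065, Cox7a2l at 0.043, Ppargc1a at 0.037 and Esrrg at 0.094. With limma-voom Cox4i2 was at -0.056, and with quality weights Ndufb2 was at 0.11 and Esrrg at 0.015. With 1 library left out the values of these genes ranged as follows: Ndufb2 from -0.15 to 0.062, Cox4i2 from -0.30 to 0.50, Cox7a1 from -0.39 to 0.069, Esrrg from -0.14 to 0.026 and Nrf1 from -0.032 to 0.15. As a share of protein-coding counts in place of all counts, the mitochondrial difference was -1.69 in place of -1.67 percentage points. A set with the RNA genes of the mitochondrial chromosome could not be formed, since the table's rows of that chromosome are the 13 protein-coding genes.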
